A study of Mus musculus with 10 samples.

Results

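The pyruvate dehydrogenase complex, its kinases and its phosphatases were followed in RNA sequencing of whole hearts from 10 male mice, 5 S1Pless and 5 control. The 10 genes were chosen by name and by role, with earlier results of these data known. Pdha1, Pdhb, Dlat and Pdhx encode subunits, Pdp1 and Pdp2 the activating phosphatases, Pdpr a regulator of the phosphatase, and Pdk1, Pdk2 and Pdk4 inhibitory kinases. All 10 were found among the 15341 genes of the table, and all 10 had enough reads to be tested. S1Pless mice carried the genotype Sphk1f/-:Sphk2f/-:Mx1Cre+, that is, floxed over null alleles of both sphingosine kinase genes together with Mx1-Cre, a recombinase whose promoter answers to interferon and works well in blood-forming cells. Controls were littermates of the genotype Sphk1f/-:Sphk2f/-:Mx1Cre-, so both groups carried a null allele of each kinase and differed in the recombinase. Mx1-Cre is not restricted to blood-forming cells, and the comparison therefore holds any direct recombination in the heart as well as the loss of plasma sphingosine 1-phosphate (S1P), the lipid messenger that the kinases make. The sources used here do not give the ages of the mice or any inducing agent. Sphk1 had 8 to 18 reads in S1Pless hearts and 16 to 27 in control hearts. Sphk2 had 277 to 389 reads in S1Pless hearts and 278 to 439 in control hearts, so whole-heart counts overlapped for both targeted genes. In S1Pless hearts Sphk1 was 1.67-fold and Sphk2 1.2-fold lower, and neither was called (edgeR adjusted p = 0.168 and 0.18). Without S1Pless replicate 3, described below, these were 1.81-fold (adjusted p = 0.145) and 1.19-fold (adjusted p = 0.278). Scaled for library size, the Sphk1 groups did not overlap then, and the Sphk2 groups did.

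Pyruvate dehydrogenase converts pyruvate into acetyl-CoA inside mitochondria, and so joins glycolysis and lactate use to the citric acid cycle. The kinases switch the complex off by phosphorylating its E1 alpha subunit, and the phosphatases switch it on again by removing the phosphate. In heart muscle, which burns mostly fatty acids, Pdk4 is known as a target of the fatty acid sensor PPAR alpha and as a gene that rises in fasting.

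Libraries held 16354071 to 20832566 counts in S1Pless hearts and 17204491 to 20202283 in control hearts. Levels are given as CPM, that is, counts scaled to a common library size with TMM (trimmed mean of M-values) factors. All 12 cardiomyocyte markers were tested, with summed levels of 61648 to 77020.0 CPM in S1Pless hearts and 75072 to 87861 CPM in control hearts. The adipocyte markers Adipoq, Lep, Plin1 and Cidec had at most 9 reads in any heart, and Cidea, of the same list, had 288 to 500. Of the skeletal muscle markers Myh4 had 0 reads in all hearts, Tnnt3 had 15 to 24 and the other 4 had at most 7. S1Pless replicate 3 stood apart from the other hearts in atrial transcripts. It held 167 reads of Myl7, the atrial myosin light chain, against 0 to 3 reads in each of the other 9 hearts, and 74 reads of Sln (sarcolipin, an atrial calcium pump regulator) against 0 to 3. Myl4, the other atrial light chain, had 314 reads there against 33 to 67 elsewhere, whereas the natriuretic peptide gene Nppa had 1343 reads there, within its range of 332 to 6665 elsewhere. Of these 4 atrial markers Myl4 and Nppa were tested and neither was called. Results are given with and without S1Pless replicate 3, and the atrial markers were named after their values were seen. The choice to leave it out was made with its values known, and a test without it describes the other 9 hearts.

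The phosphatase gene Pdp2 was lower in S1Pless hearts and was the only 1 of the 10 genes past the threshold, an adjusted p of 0.05. None was called higher. Over all 12992 genes tested, 0.316% were called lower and 3.4% higher, by the quasi-likelihood test of edgeR with p-values adjusted after Benjamini and Hochberg. The log2 fold change (S1Pless over control) was negative in 9 of the 10 genes, against 52.6% of all genes, with a median of -0.21 against -0.01. Without S1Pless replicate 3 it was negative in all 10, and Pdp2 and Pdk4 were called lower, against 0.421% of all genes, and none higher, against 3.28%. No gene of the 10 had groups that did not overlap, against 1.82% of all genes lower and 4.53% higher in every S1Pless heart; without S1Pless replicate 3 these were 2 genes lower and 0 higher, against 2.82% and 5.86%. TMM factors averaged 1.05 ± 0.0328 in S1Pless hearts and 0.955 ± 0.0478 in control hearts (SD, n = 5 each), and the adjusted p of an exact two-sided permutation test was 0.0635 over 4 library measures. Scaled to library totals alone, log2 fold changes of all genes moved up by a median of 0.14, 8 of the 10 genes were still negative with a median of -0.08, and Pdp2 was not called (-0.52, adjusted p = 0.0832). In whole tissue, fewer cells of a type and less RNA per cell cannot be told apart.

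The promoters of the phosphatase and the kinase that these results turn on are shown from the RefSeq promoter table (GRCm38.p6), which held 9 of the 10 genes and not Pdp1. Each sequence runs 5′ to 3′ on the gene's strand, from 250 to 51 bases before the annotated start. The Pdp2 stretch lies on the plus strand at chr8:104591222-104591421 and the Pdk4 stretch on the minus strand at chr6:5496329-5496528. Capitals mark a match on either strand to CACGTG (the E-box) or to the motif inside it, ACGTG (the core of the hypoxia-inducible factor site). AGGTCA (the core of nuclear receptor sites) and TGTTTAC (a FOXO motif) were searched as well.
Pdp2: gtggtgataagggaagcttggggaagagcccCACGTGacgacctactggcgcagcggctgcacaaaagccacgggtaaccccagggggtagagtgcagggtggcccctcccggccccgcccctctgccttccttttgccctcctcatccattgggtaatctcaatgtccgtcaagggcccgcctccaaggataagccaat
Pdk4: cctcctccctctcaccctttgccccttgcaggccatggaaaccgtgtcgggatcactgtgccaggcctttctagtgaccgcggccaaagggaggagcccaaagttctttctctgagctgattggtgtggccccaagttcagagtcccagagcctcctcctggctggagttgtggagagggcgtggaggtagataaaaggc
The Pdp2 stretch holds an E-box, as do those of Pdpr and of 1 of the 2 starts listed for Pdk2. Among the same window of all 32851 promoters, 4.3% hold an E-box, 12.9% ACGTG, 11.4% AGGTCA and 2.6% TGTTTAC. The Pdk4 stretch holds none of the 4, which says only that these letters are not in this window.

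The 4 subunit genes were 1.1-fold to 1.16-fold lower in S1Pless hearts and none was called. Pdha1 (ENSMUSG00000031299), the catalytic E1 alpha subunit that the kinases phosphorylate, had 900.2, 1142, 1138, 1259.6 and 1160.3 CPM in S1Pless hearts 1 to 5 and 1114, 1339, 1252, 1427 and 1367 CPM in control hearts 1 to 5. The groups overlapped through control replicate 1 and S1Pless replicate 4, and S1Pless replicate 1 was lowest. Its log2 fold change was -0.21 ± 0.11 (SE), with an edgeR adjusted p of 0.313. Pdhb (ENSMUSG00000021748), the E1 beta subunit, averaged 481 ± 52.8 CPM in S1Pless hearts and 530.0 ± 47.9 CPM in control hearts (SD, n = 5 each), a log2 fold change of -0.14 ± 0.11. Dlat (ENSMUSG00000000168), the E2 acetyltransferase that forms the core, averaged 362 ± 53.2 CPM in S1Pless hearts and 419 ± 40.8 CPM in control hearts, a log2 fold change of -0.21 ± 0.12. Pdhx (ENSMUSG00000010914), which binds the E3 subunit to the core, averaged 131 ± 18.8 CPM in S1Pless hearts and 145 ± 15.1 CPM in control hearts, a log2 fold change of -0.15 ± 0.11. The edgeR adjusted p-values of Pdhb, Dlat and Pdhx were 0.487, 0.348 and 0.504, and each gene's groups overlapped.

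Ratios were taken of Pdha1 to Pdhb and of Dlat to Pdhx, and the latter varied less. The count ratio of Dlat to Pdhx was 2.7 to 2.82 in S1Pless hearts and 2.66 to 3.15 in control hearts. The count ratio of Pdha1 to Pdhb was wider, at 1.99 to 2.67 in S1Pless hearts and 1.98 to 2.91 in control hearts, and the ranges overlapped. S1Pless replicate 1 had the lowest level of all hearts in 6 of the 10 genes, among them 3 of the 4 subunits, and control replicate 5 the highest in 4. Without S1Pless replicate 3 the log2 fold changes of the subunits were -0.21 (Pdha1), -0.12 (Pdhb), -0.17 (Dlat) and -0.11 (Pdhx), with edgeR adjusted p-values from 0.393 to 0.671.

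Heart muscle markers and macrophage markers were examined beside these small differences. All 12 cardiomyocyte markers (11 with library totals alone) had negative log2 fold changes, with a median of -0.19 (-0.05 with library totals alone), and edgeR called none, while DESeq2 called Pln lower. The smallest p among them was that of Pln (phospholamban), at -0.30 ± 0.09 on the log2 scale and an edgeR adjusted p of 0.089, with no overlap of the groups. Ckm, muscle creatine kinase, was next at -0.27 ± 0.11 (adjusted p = 0.205). All 11 macrophage markers had positive log2 fold changes with a median of 0.88, and 6 were called higher. Their summed levels were 307 to 684 CPM in S1Pless hearts, highest in replicate 5, and every control heart was lower, with a median of 224 CPM. Ccr2, a chemokine receptor of monocytes, rose 3.12-fold (adjusted p = 0.0119) and Aif1 rose 2.76-fold (adjusted p = 0.0177). Csf1r, Tyrobp, C1qa and Mrc1 were the others called, with adjusted p-values of 0.0255 to 0.0326. With a block for neighbouring title numbers 0 macrophage markers were called, with 1 heart left out 2 to 7, and the 2 arose without control replicate 2, 3, 4 or 5. Of 7 endothelial markers 2 had negative log2 fold changes, with a median of 0.20 (0.34 with library totals alone). All 7 fibroblast markers were positive, with a median of 0.19 (0.33 with library totals alone). Among the endothelial markers edgeR called Erg alone (1.31-fold higher, adjusted p = 0.0332). Among the fibroblast markers it called Dpep1 alone (1.46-fold higher, adjusted p = 0.0454), which was not called without S1Pless replicate 3 (adjusted p = 0.087). Erg was called in 3 and Dpep1 in 2 of the 10 fits with 1 heart left out, and neither with the block. Smooth muscle and pericyte markers (6 tested, median -0.06, or 0.09 with library totals alone) and red cell markers (5 tested, median 0.47) held no call. The part of any of these cell types in the differences of the pyruvate dehydrogenase genes was not tested.

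**Figure D1:**
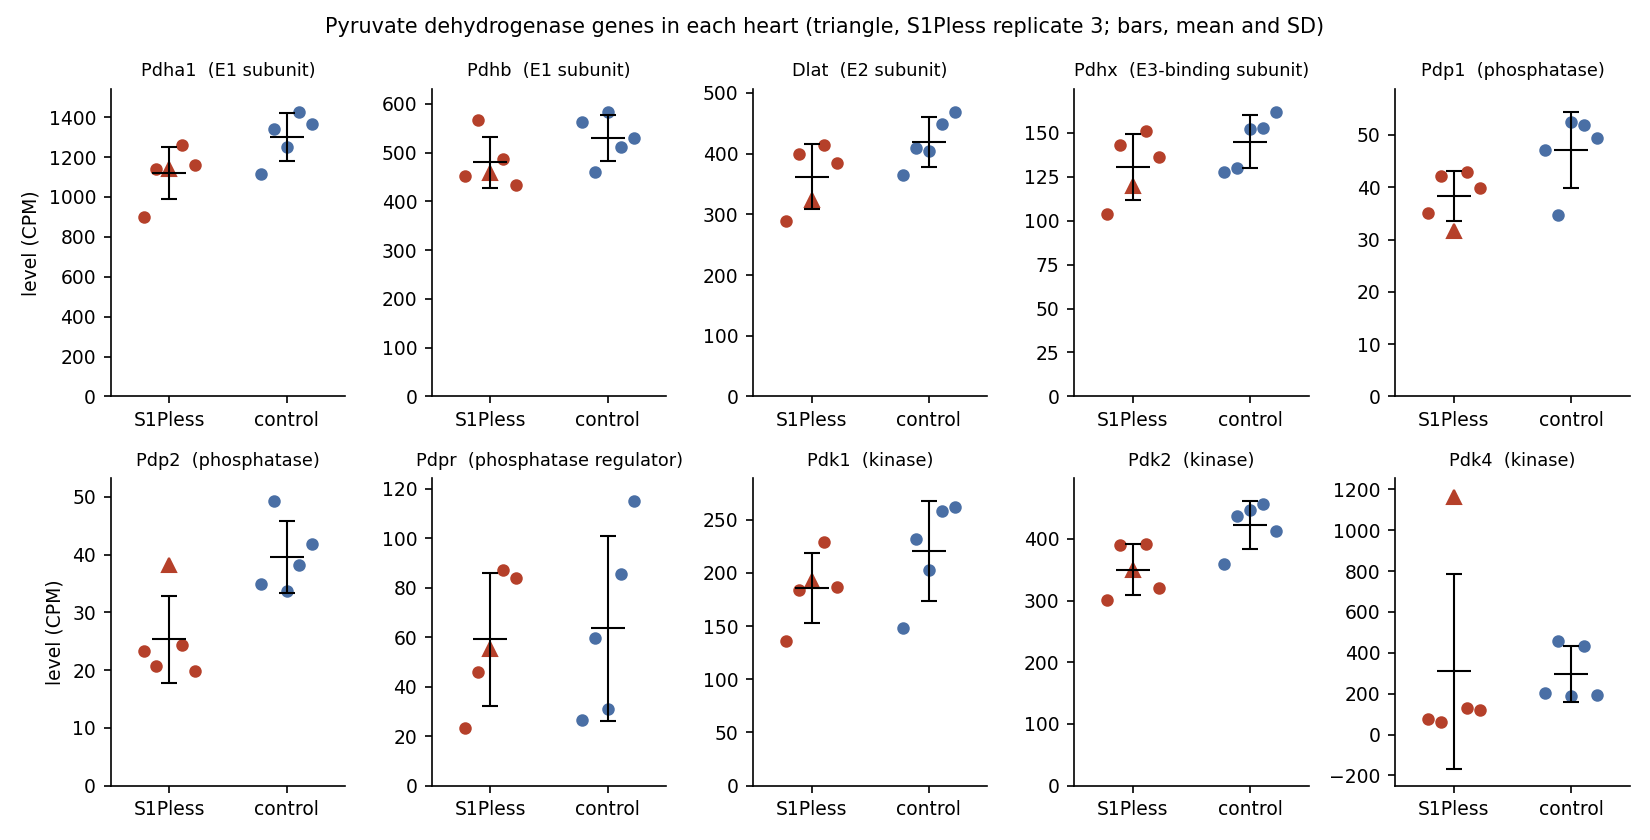
Level in CPM (vertical axes, a separate scale per gene) of each of the 10 genes in each heart, S1Pless left and control right; horizontal lines are means, bars are SD (n = 5), and the triangle is S1Pless replicate 3. The triangle lies at 1161 CPM for Pdk4 and at 38.3 CPM for Pdp2, above the other 4 S1Pless hearts, and within or below the range of the others for the other 8 genes; the SD bar of Pdk4 runs below 0 because of that heart.

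The phosphatase Pdp2 fell 1.57-fold in S1Pless hearts. Pdp2 (ENSMUSG00000048371), a mitochondrial phosphatase that reactivates the complex and is known to respond to insulin, had 23.4, 20.7, 38.3, 24.4 and 19.9 CPM in S1Pless hearts 1 to 5, against 34.9, 49.3, 33.7, 38.3 and 41.8 CPM in control hearts 1 to 5. S1Pless replicate 3 lay among the controls, and the other 4 S1Pless hearts lay below every control. The means were 25.3 ± 7.49 CPM in S1Pless hearts and 39.6 ± 6.3 CPM in control hearts (SD, n = 5 each), from 413 to 660 reads and 530 to 918 reads per library. Pdp2 had a log2 fold change of -0.65 ± 0.17 (SE), with an edgeR adjusted p of 0.0487. The call rested on a narrow margin: with 1 heart left out at a time it held in 2 of 10 fits, without S1Pless replicate 3 or control replicate 1, and the adjusted p reached 0.115 without S1Pless replicate 5. It was also lost without a filter on low counts (adjusted p = 0.0511).

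Without S1Pless replicate 3 the fall in Pdp2 was larger. The other 4 S1Pless hearts averaged 22.1 ± 2.16 CPM, against 39.6 ± 6.3 CPM in the 5 control hearts, and the groups did not overlap. The log2 fold change was -0.84 ± 0.12, a 1.79-fold fall, with an edgeR adjusted p of 0.00695. Non-overlapping groups with lower values in S1Pless hearts were seen in 2.82% of all genes without that heart and in 1.82% with it. In the 9 fits that left out S1Pless replicate 3 and another heart, Pdp2 was called each time, with adjusted p-values of 0.00739 to 0.0247. All 9 fits lack the S1Pless heart with the highest Pdp2, so they cannot show whether the call depends on leaving it out.

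Pdp1, the calcium-sensitive phosphatase of muscle, shifted less and was not called. Pdp1 (ENSMUSG00000049225) had 35.1, 42.2, 31.7, 43 and 39.8 CPM in S1Pless hearts 1 to 5 and 47.2, 34.6, 52.4, 51.9 and 49.5 CPM in control hearts 1 to 5. Control replicate 2 was the low exception among the controls, and the other 4 controls lay above every S1Pless heart. The log2 fold change was -0.30 ± 0.12, with an edgeR adjusted p of 0.194. S1Pless replicate 3 had the lowest Pdp1 of all hearts, and control replicate 2 the next lowest, whereas Pdp2 was highest in its group in each of these libraries, whose title numbers are neighbours. Per kilobase of annotated exon, Pdp2 made up 27.9% to 48.9% of the summed level of Pdp1 and Pdp2 in S1Pless hearts, with S1Pless replicate 3 at 48.9%, and 33.7% to 53% in control hearts. Whether the change in Pdp2 differed from that in Pdp1 was not tested.

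Pdpr varied widely between hearts and did not follow genotype. Pdpr (ENSMUSG00000033624) encodes the regulatory subunit that lowers the phosphatase's sensitivity to magnesium. It had 23.2, 46.1, 55.1, 87.2 and 83.8 CPM in S1Pless hearts 1 to 5 and 26.7, 59.7, 30.8, 85.7 and 115 CPM in control hearts 1 to 5. The coefficient of variation was 45.4% in S1Pless hearts and 58.6% in control hearts, against 9.04% to 14.7% in either group for the subunits. The 3 hearts with the highest title numbers (S1Pless replicates 4 and 5 and control replicate 5) had 83.8 to 115 CPM, and of the others control replicate 4 alone reached that range. The meaning of the title number is not stated. The log2 fold change of Pdpr was -0.11 ± 0.46, with an edgeR adjusted p of 0.926.

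Among the kinases, Pdk2 had the highest mean level per kilobase of exon in both groups, followed by Pdk4 and Pdk1. Pdk2 had 111 ± 12.9 CPM per kilobase in S1Pless hearts and 134 ± 12.3 in control hearts (SD, n = 5 each). Pdk4 had 88.2 ± 136 CPM per kilobase in S1Pless hearts (27.6 ± 9.88 without S1Pless replicate 3) and 84.1 ± 39.1 in control hearts. Pdk1 had 23.9 ± 4.27 CPM per kilobase in S1Pless hearts and 28.4 ± 6.07 in control hearts. Without that heart Pdk1 had 23.7 ± 4.9 CPM per kilobase in S1Pless hearts, so the spreads of Pdk1 and Pdk4 overlapped there. Within each heart Pdk2 exceeded Pdk4, except in S1Pless replicate 3, and the gap was narrowest in control replicate 2, with 138 CPM per kilobase of Pdk2 and 129.8 of Pdk4. Across hearts the ranges of Pdk2 and Pdk4 overlapped in both groups, among S1Pless hearts through replicate 3 alone. The other S1Pless hearts had 94.9 to 124 CPM per kilobase of Pdk2 and 16.8 to 37.2 of Pdk4. Pdk3, the other kinase of the family, was much scarcer, with 1.46 to 2.84 CPM in S1Pless hearts and 1.13 to 2.63 CPM in control hearts.

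Pdk1 and Pdk2 were slightly lower in S1Pless hearts and were not called. Pdk2 (ENSMUSG00000038967), the kinase found in most tissues, had 300.1, 390.0, 349, 391 and 321 CPM in S1Pless hearts 1 to 5 and 359, 437, 447, 456 and 413 CPM in control hearts 1 to 5. Of the controls only replicate 1 lay within the S1Pless range. Pdk2 had a log2 fold change of -0.27 ± 0.11, with an edgeR adjusted p of 0.184. Pdk1 (ENSMUSG00000006494), the kinase known as a target of the hypoxia-inducible factor, averaged 186 ± 33.2 CPM in S1Pless hearts and 221 ± 47.2 CPM in control hearts (SD, n = 5 each), a log2 fold change of -0.25 ± 0.16 (adjusted p = 0.421). Neither moved with S1Pless replicate 3, where Pdk1 was 1.03 times and Pdk2 0.984 times the median of the other S1Pless hearts. The count ratio of Pdk2 to its substrate gene Pdha1 was 0.276 to 0.342 in S1Pless hearts and 0.302 to 0.357 in control hearts.

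Pdk4 had the widest spread of the 10 genes among S1Pless hearts, with a coefficient of variation of 154%, through S1Pless replicate 3. Without that heart it was 35.8%, and in control hearts 46.4%, in both cases below that of Pdpr. Pdk4 (ENSMUSG00000019577), the kinase that spares glucose when fatty acids are burnt, had 76.4, 59.1, 1161, 130.5 and 122 CPM in S1Pless hearts 1 to 5, against 202, 456, 190.0, 435 and 193 CPM in control hearts 1 to 5. S1Pless replicate 3 was the highest of all 10 hearts, and the other 4 S1Pless hearts lay below every control. With all hearts the means were 309.8 ± 477 CPM in S1Pless hearts and 295 ± 137 CPM in control hearts (SD, n = 5 each). Its log2 fold change, whose sign was not settled, was 0.07 ± 0.83, with an edgeR adjusted p of 0.974.

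Without S1Pless replicate 3, Pdk4 was 3.03-fold lower in S1Pless hearts. The other 4 S1Pless hearts averaged 97 ± 34.7 CPM, against 295 ± 137 CPM in the 5 control hearts, a log2 fold change of -1.60 ± 0.34 with an edgeR adjusted p of 0.0307. Among the 10 genes this change was the largest in that comparison. When a further heart was left out, the log2 fold change stayed between -1.80 and -1.39 and the gene was called in 5 of 9 fits. All 9 fits lack the heart with the highest Pdk4, so they cannot show whether the call depends on leaving it out. The call was lost without control replicate 2 (adjusted p = 0.055), control replicate 4 (0.0669), S1Pless replicate 1 (0.096) or S1Pless replicate 5 (0.0662). DESeq2 and limma-voom called it on the same 9 hearts, whereas a fit that added the title number's series did not (adjusted p = 0.0991). S1Pless replicate 3 was the heart with atrial transcripts described above, and their part in its Pdk4 level was not tested.

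**Figure D2:**
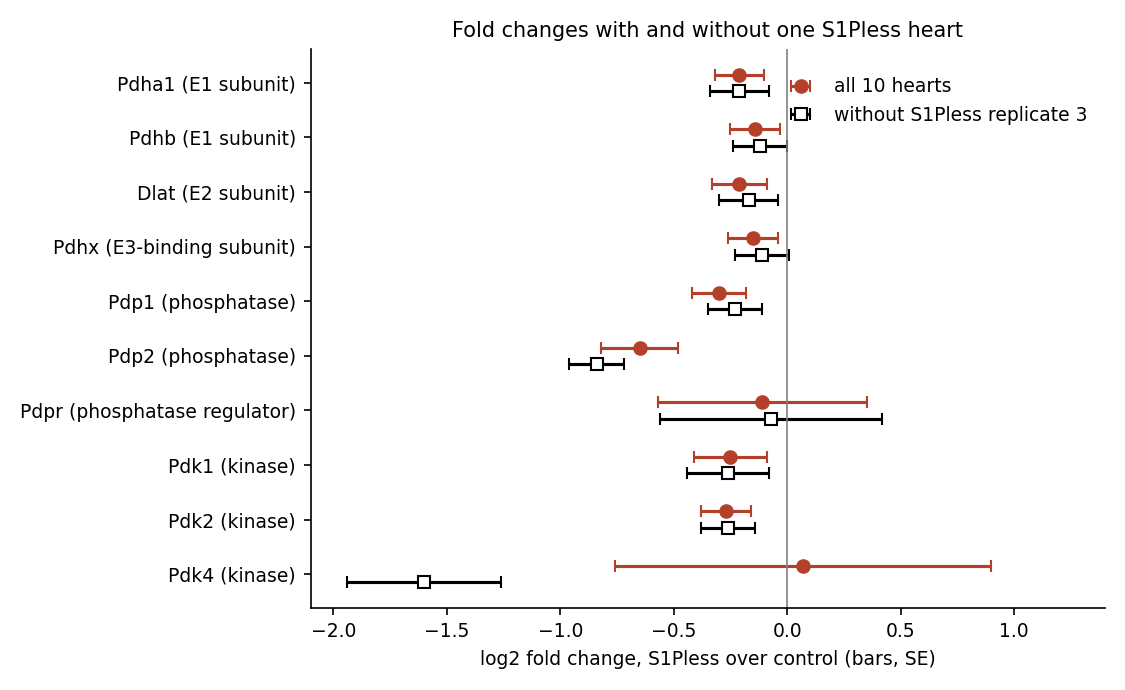
Log2 fold change, S1Pless over control (horizontal axis), of each gene (vertical axis), with all 10 hearts (filled circles) and without S1Pless replicate 3 (open squares); bars are SE from edgeR. Pdk4 lies at 0.07 with all hearts and at -1.60 without that heart, Pdp2 moves between -0.65 and -0.84, and the other 8 genes move by less than their SE.

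Per kilobase of exon, Pdk4 was the largest part of the kinase transcripts in S1Pless replicate 3 alone, and Pdk2 in every other heart. Of the summed level of Pdk1, Pdk2 and Pdk4 per kilobase, Pdk4 made up 10.3% to 21.7% in the 4 other S1Pless hearts, 71% in S1Pless replicate 3 and 24.4% to 43.6% in control hearts. The summed level of the 4 kinases was 135 to 191 CPM per kilobase in those 4 S1Pless hearts, 467 in S1Pless replicate 3 and 191 to 302 in control hearts. The count ratio of Pdk4, an inhibitor of the complex, to Pdp2, an activator, was 3.27, 2.86, 30.3, 5.35 and 6.14 in S1Pless hearts 1 to 5, and 5.81, 9.23, 5.64, 11.3 and 4.62 in control hearts 1 to 5. The ratio was highest in S1Pless replicate 3. Of the other S1Pless hearts, replicates 1 and 2 lay below every control, and replicates 4 and 5 lay within the control range. Without S1Pless replicate 3 both genes were lower, Pdk4 by more (log2 fold change -1.60, against -0.84 for Pdp2). A difference in the ratio between genotypes was not tested.

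**Figure D3:**
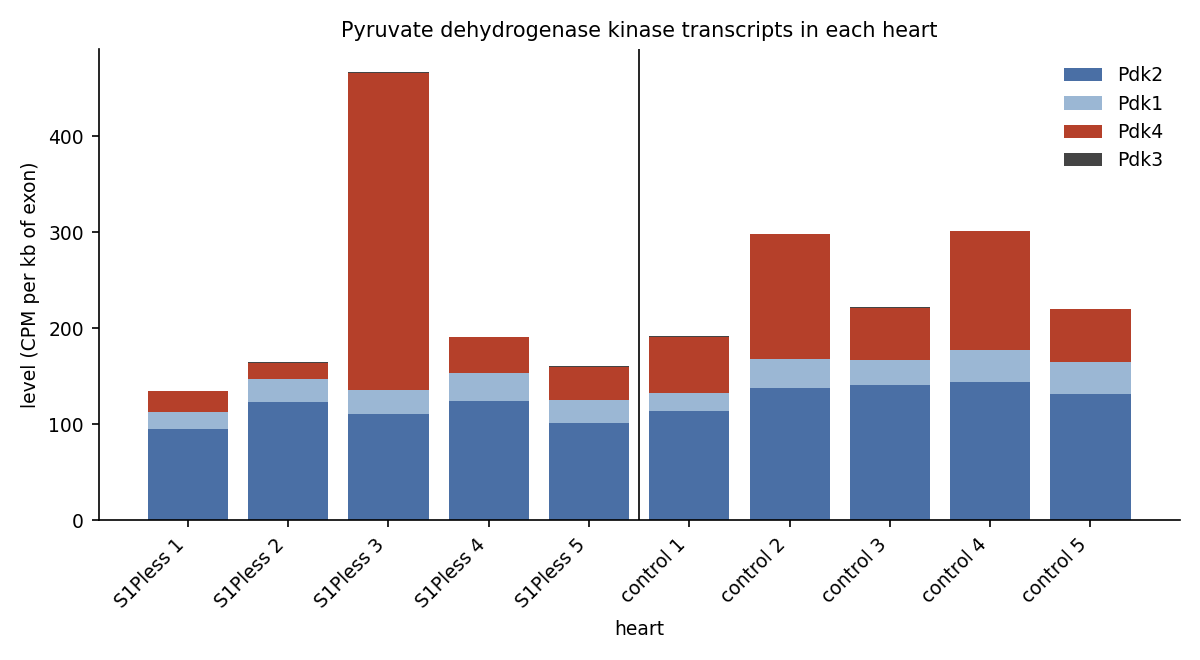
Stacked level in CPM per kilobase of annotated exon (vertical axis) of Pdk2, Pdk1, Pdk4 and Pdk3 in each heart (horizontal axis), S1Pless left of the line and control right. The red Pdk4 segment makes the bar of S1Pless replicate 3 the tallest at 467, while the Pdk2 segment stays between 94.9 and 144 in all hearts.

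Several known PPAR targets were high in S1Pless replicate 3, as Pdk4 was. Control replicate 2, whose title number neighbours that heart's, was the highest control in Pdk4 (456 CPM), Ucp3 (71.1 CPM) and Angptl4 (17.3 CPM). In Acot1, Acot2, Cpt2 and Mlycd it was not. Control replicate 2 held 1 read of Myl7 and 0 of Sln. The fits without S1Pless replicate 3 keep this control. Of 14 listed genes of fatty acid handling that PPAR alpha is known to drive, 13 were tested and Cpt1b was not analysed here. With all hearts edgeR called none and DESeq2 called Cpt2 lower. All 13 had negative log2 fold changes and the median was -0.24, against -0.01 over all genes. In 12 of the 13, S1Pless replicate 3 was the highest S1Pless heart, against 18.3% of all genes, and in 5 it was the highest of all 10 hearts, against 7.52%. It was over 1.1 times the control mean in 6 of the 13 and between 0.9 and 1.1 times in the other 7. Without it 5 were called lower, against the 0.421% given above, and the median was -0.34. Leaving out the highest S1Pless heart lowers the S1Pless mean, here in 12 of the 13 genes. These 5 calls and the lower median are therefore no separate evidence. With library totals alone 11 of the 13 were negative over all hearts, with a median of -0.11.

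Ucp3, a mitochondrial uncoupling protein gene of muscle, had 20.9, 7.81, 106, 16.4 and 12.8 CPM in S1Pless hearts 1 to 5 and 29.1, 71.1, 36.8, 55 and 38.9 CPM in control hearts 1 to 5. It followed the order of Pdk4 closely, with S1Pless replicate 3 at the top and the other 4 S1Pless hearts below every control. Its log2 fold change was -0.51 ± 0.67 with all hearts (edgeR adjusted p = 0.72) and -1.67 ± 0.31 without S1Pless replicate 3 (adjusted p = 0.0218). Angptl4, the secreted lipoprotein lipase inhibitor, had 2.8, 1.25, 23, 2.67 and 6.02 CPM in S1Pless hearts 1 to 5 and 5, 17.3, 7.08, 5.56 and 4.69 CPM in control hearts 1 to 5. Its groups overlapped with and without that heart, and it was called in neither fit (adjusted p = 0.923 and 0.169). The others called lower on the 9 hearts were Acot1 (log2 fold change -0.98 ± 0.21), Acot2 (-0.45 ± 0.11), Mlycd (-0.45 ± 0.11) and Cpt2 (-0.39 ± 0.10), which encode acyl-CoA thioesterases, malonyl-CoA decarboxylase and a carnitine palmitoyltransferase. Their edgeR adjusted p-values were 0.027 to 0.0492, and reads of the near-identical Acot1 and Acot2 may be split between them.

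**Figure D4:**
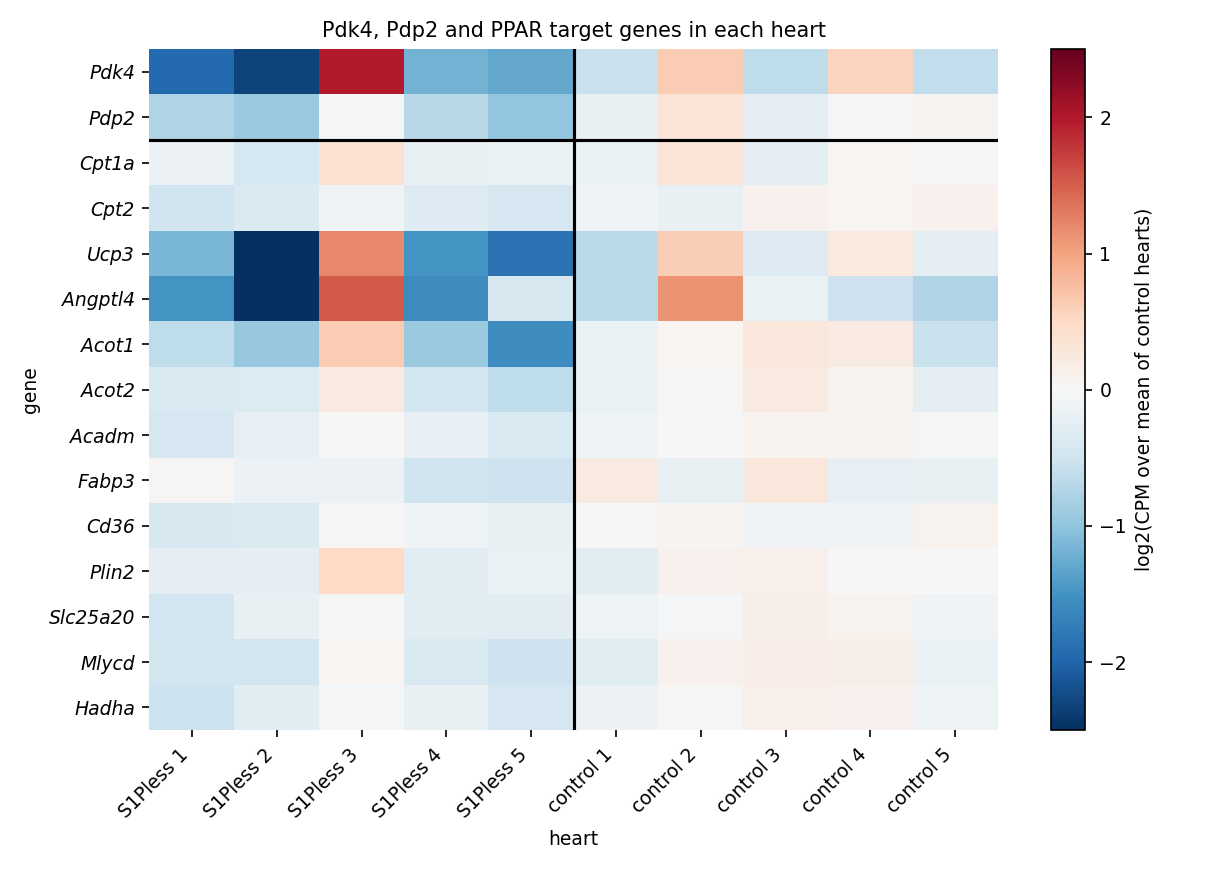
Log2 ratio of each heart's CPM to the mean of the control hearts (colour, red higher and blue lower, limited to 2.5 either way) for Pdk4, Pdp2 and the 13 tested PPAR targets (rows) in each heart (columns), S1Pless left of the line. S1Pless replicate 3 is red for Pdk4, Ucp3 and Angptl4, where the other 4 S1Pless hearts are blue.

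Among 10247 genes averaging 5 CPM or more, Pdk4 ranked first by the ratio of S1Pless replicate 3 to the median of the other S1Pless hearts, at 11.7. Of those genes only Angptl4 (8.4) and Ucp3 (7.27) also passed a ratio of 4. The genes whose pattern over the 10 hearts was most like that of Pdk4, by the root mean square difference of centred log2 CPM, were Ucp3 (0.45), Angptl4 (0.55), Abhd1 (0.80), Acot1 (0.82) and Slc25a22 (0.84), against 1.22 for Pdk4's own spread about its mean. Those most like Pdp2 were Slc25a22 (0.18), A530016L24Rik (0.18), Slc25a42 (0.19), Ttc30b (0.19) and Kcnv2 (0.20), against a spread of 0.44 for Pdp2. Slc25a22 encodes a mitochondrial glutamate carrier and Slc25a42 a mitochondrial coenzyme A carrier. Slc25a22 stood in both lists, with 52.5 CPM in S1Pless replicate 3, 20.2 to 27 CPM in the other S1Pless hearts and 31 to 57 CPM in control hearts. Of the 5 genes most like Pdp2 none was called with all hearts, with A530016L24Rik nearest at an edgeR adjusted p of 0.0523, and all 5 were lower on the 9 hearts without S1Pless replicate 3 (adjusted p = 0.0147 to 0.0351). They were selected for likeness to Pdp2 over these hearts, so their direction is no separate evidence.

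The partners of the complex showed small differences and no call. Of 15 genes, namely Pdk3 and those for the shared E3 subunit, pyruvate carriers, thiamine supply and lipoate assembly, 13 had negative log2 fold changes with a median of -0.14, which with library totals alone became 7 and 0.00. Dld, the E3 subunit, had 344, 425, 417, 429 and 403 CPM in S1Pless hearts 1 to 5 and 459, 431, 471, 455 and 495 CPM in control hearts 1 to 5. All S1Pless hearts lay below all controls, by a narrow gap (log2 fold change -0.20 ± 0.09, edgeR adjusted p = 0.265). Lipt1, a lipoyltransferase, had the smallest p of the list, with a log2 fold change of -0.33 ± 0.13 (adjusted p = 0.175). The mitochondrial pyruvate carrier genes Mpc1 and Mpc2 had log2 fold changes of -0.14 ± 0.12 and -0.23 ± 0.13.

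Genes of other pyruvate fates and of the sister complexes had medians close to that of the pyruvate dehydrogenase genes. Of 13 genes that make, move or use pyruvate 11 had negative log2 fold changes, with a median of -0.19, and edgeR called none. DESeq2 and the fit with the title number's series called Gpt2 lower, and edgeR called Ldhd without control replicate 1. The smallest p-values there were in Gpt2, an alanine transaminase (log2 fold change -0.40 ± 0.13, edgeR adjusted p = 0.101), and Ldhd, the D-lactate dehydrogenase (-0.30 ± 0.10, adjusted p = 0.12). All 10 genes of the oxoglutarate and branched-chain keto acid dehydrogenases had negative log2 fold changes, with a median of -0.23, and edgeR called none. DESeq2 and the fit with the title series called Ppm1k lower, and edgeR called Dbt without control replicate 1. Ppm1k, the phosphatase of the branched-chain complex, had 90.5 to 121 CPM in S1Pless hearts and 123 to 169 CPM in control hearts, without overlap, a log2 fold change of -0.34 ± 0.11 (adjusted p = 0.102). Dbt, the core of that complex, had a log2 fold change of -0.35 ± 0.13 (adjusted p = 0.143). Neither these lists nor the partners of the complex held a call without S1Pless replicate 3. With library totals alone the pyruvate list had a median of -0.06 with 10 negative, and the sister complexes -0.10 with 8 negative.

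Of regulators known to act on the kinase and phosphatase genes edgeR called none, and DESeq2 called Foxo4 lower. Of 17 genes for PPAR, estrogen-related, FOXO, glucocorticoid and insulin signalling factors 15 had negative log2 fold changes (10 with library totals alone), with a median of -0.18. Foxo4 had the smallest p (log2 fold change -0.26 ± 0.09, edgeR adjusted p = 0.123), and Ppargc1a, the coactivator PGC-1 alpha, was next (-0.27 ± 0.13, adjusted p = 0.253). Ppara ranged from 15.2 to 28.2 CPM in S1Pless hearts and from 13.8 to 39.9 CPM in control hearts, and S1Pless replicate 3, with 21.5 CPM, lay in the middle. Of 10 tested hypoxia-inducible factor targets, edgeR called 1 in each direction. The log2 fold change was negative in 7, with a median of -0.16 (5 and -0.03 with library totals alone). DESeq2 called 3 lower (Egln3, Bnip3 and Hk2) and 1 higher (Pfkfb3). Egln3, an oxygen-sensing prolyl hydroxylase, had 40.3, 40.4, 55.3, 52.1 and 52.3 CPM in S1Pless hearts 1 to 5 and 61.8, 102, 73.5, 60.2 and 106 CPM in control hearts 1 to 5, a 1.68-fold fall (adjusted p = 0.0281). Pfkfb3, which drives glycolysis through fructose 2,6-bisphosphate, had 27.8, 21.9, 19.8, 16 and 25.1 CPM in S1Pless hearts 1 to 5 and 15.2, 11.8, 13.7, 15.6 and 14.2 CPM in control hearts 1 to 5, a 1.57-fold rise (adjusted p = 0.0215). Neither gene's groups overlapped, and both calls held without S1Pless replicate 3 (adjusted p = 0.0346 and 0.0261). With 1 heart left out the Egln3 call held in 5 of 10 fits, and was lost without S1Pless replicate 1 or 2 or control replicate 2, 3 or 5. The Pfkfb3 call held in 6, and was lost without S1Pless replicate 5 or control replicate 2, 3 or 4. With the block of neighbouring title numbers Egln3 was called (adjusted p = 0.00485) and Pfkfb3 was not (adjusted p = 0.0707).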

How the data were processed

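RNA from 10 hearts was sequenced from stranded mRNA libraries, per the labels' protocols. The authors deposited 1 table of raw counts for 15341 genes. The submitters' processing notes name STAR 2.7.8a, featureCounts 2.0.1 and GRCm39. The annotation, strand setting and treatment of multi-mapping reads are not stated in the sources, and Pdha1 overlaps Map3k15 on the opposite strand. Exon lengths came from GENCODE M21. Replicates were numbered in accession order. The labels pair no hearts across groups, and p-values measure the spread between these samples. Library numbers place controls ahead of S1Pless hearts, so order and group cannot be told apart.

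Counts were tested in R 4.3.3 with edgeR 4.0.16 (TMM factors, filterByExpr at a count of 10, robust glmQLFit, glmQLFTest) over 12992 genes, or 13064 without S1Pless replicate 3. Adjusted p-values follow Benjamini and Hochberg, with a threshold of 0.05. SE was taken from each log2 fold change and its F statistic. Likeness used log2 CPM with a prior count of 2. DESeq2 1.42.0 and limma-voom (limma 3.58.1) were alternatives. On simulated data for the 12992 genes, the fit recovered 68.2% of 1.5-fold and 78.3% of 2-fold changes. The simulated data held no outlying heart and no group difference in TMM factors, so these rates hold for such data only. Depth was 16354071 counts or more per heart, which put at least 413 reads behind each Pdp2 value; errors are those between hearts.

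The 10 genes and the lists were chosen with earlier results of these data known. Named from each list were its called genes (up to 6) or, with none, the 2 with the smallest p. For Pdp2 and Pdk4 the 5 genes of most similar pattern were named. Dld, Mpc1, Mpc2, Pdk3, Ppara, Angptl4, and the atrial, adipocyte and skeletal muscle markers were named for their role after their values were seen, as were the targets called without S1Pless replicate 3. A gene of the PPAR target list is not reported here and was left out of its counts.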

Additional observations from a re-analysis of the deposited data

Results flagged for a closer look

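S1Pless replicate 3 was far above the other S1Pless hearts in Pdk4, with 1161 CPM against 59.1 to 130.5 CPM, and in Pdp2, with 38.3 CPM against 19.9 to 24.4 CPM. In both genes its gap to the nearest S1Pless heart took up more than 0.71 of the group's range, the 95% critical value of Dixon's test for 5 samples. Chance gives such a gap in about 1 group in 20, and 20 groups of values (10 genes in each genotype) and 8 groups of library measures were examined. Over all genes tested, this heart stood apart on the high side in 0.847% and on the low side in 0.308%. S1Pless replicate 5 stood apart on the high side more often, in 2.17%. It did not stand apart in library total, TMM factor, mitochondrial share or haemoglobin share.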

How the results depend on the processing

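The labels give the groups no shared replicate numbers, so no pairing by replicate was made. A block of neighbouring title numbers, whose meaning is not stated, was tried. Control replicates 3 and 4 shared a block with no S1Pless heart, so they did not bear on the genotype difference in that fit. Fewer calls there may therefore reflect fewer usable hearts, which was not tested. Over the 10 genes, 1 was called lower with all hearts. With library totals alone, with no filter, with a filter of 1 CPM in 5 libraries and with the title number's series as a covariate, 0 were. Pdp2 stayed negative throughout, with adjusted p-values of 0.0505 to 0.0832 in those 4 fits. It was called in 6 other fits on all hearts. Their adjusted p-values ran from 0.00675 (DESeq2) to 0.0484 (edgeR with upper-quartile factors), with 0.0232 for edgeR with the block. With 1 heart left out, 0 to 2 were called lower and Pdp2 ranged from -0.84 to -0.55. On the 9 hearts without S1Pless replicate 3, alternatives chosen after seeing the data called 2 with DESeq2 or limma-voom. The log2 fold change of Pdk4 was -0.91 with limma-voom and quality weights on all hearts and -0.51 with a block of neighbouring title numbers. Without S1Pless replicate 3 it was -1.63 with DESeq2, -1.76 with limma-voom and -1.72 with the title series. Leaving out 1 heart gave -1.60 to 0.33 for Pdk4 and -0.32 to 0.22 for Pdpr; leaving out S1Pless replicate 3 and another heart gave -1.80 to -1.39 and -0.34 to 0.24. Pdpr was 0.01 with library totals alone. The other 7 genes were called in no fit and negative in all. Over all genes, 442 were called higher and 41 lower. These counts were 1420 and 13 with library totals alone, 753 and 266 with DESeq2, and 80 and 8 with the block. Leaving out 1 heart gave 118 to 504 higher and 8 to 85 lower, with the lowest of both without control replicate 3. The cause was not tested. Reads of whole hearts limit the rarest genes: Pdk3 had 21 to 60 reads per library.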
